A study of Mus musculus with 4 samples.

Results

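The genes described here are 10 genes of meiotic DNA damage signalling and sex chromosome silencing, Atm, Atr, Topbp1, Hus1, Chek1, H2ax, Mdc1, Rnf8, Brca1 and Trp53bp1, out of 21887 protein-coding genes of the mouse genome. They were chosen by name for their role, with earlier results of these data known, and all 10 matched the gene table by symbol. For each gene every accessible interval inside it or within 10 kb of either end was collected. Accessibility came from ATAC-seq, which relies on preferential cutting of open chromatin by Tn5 transposase, applied to nuclei of pachytene spermatocytes from mouse testis tagged P35. Of 4 libraries, 2 carried the genotype label Znhit1_KO and 2 the label CTRL, and 1 peak list per genotype was analysed, recorded for replicate 1. ZNHIT1 is a subunit of the SRCAP remodeller, which places the histone variant H2A.Z, and the comparison asked how its loss bears on accessible sites. The promoter or Cre that removed Znhit1, the strain and any allele carried by the controls are not stated in the sources used.

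Double-strand breaks that start meiotic recombination activate the kinases ATM and ATR, which phosphorylate the histone variant H2AX around the break. MDC1 binds that mark and spreads it, and the ubiquitin ligase RNF8 is recruited through MDC1. At pachytene the unpaired X and Y axes of the male collect BRCA1, TOPBP1 and ATR, and the spread of phosphorylated H2AX over their loops accompanies transcriptional silencing of both chromosomes. HUS1 belongs to the ring-shaped 9-1-1 clamp that helps TOPBP1 to activate ATR, CHEK1 is the kinase downstream of ATR, and TRP53BP1 reads histone marks next to breaks.

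The lists held 21004 separate intervals in the knockout and 15376 in the control, without heights, scores or read numbers. No test between genotypes is therefore possible, and a wider or an additional interval cannot be told apart from deeper or better enriched data. Spermatocyte genes were accessible at a gene end in both lists at 5 of 5 markers (Sycp1, Sycp3, Hormad1, Piwil1 and Mybl1), whereas 3 Sertoli cell markers (Sox9, Wt1, Amh) and 3 Leydig cell markers (Star, Cyp17a1, Hsd3b1) had no interval within 1 kb of an end in either list. Over all coding genes 28.6% had one in both lists and 57.0% in neither, so absence at these 6 is the state of most genes. The markers were chosen with earlier results of these data known, so these counts are no independent check of the cells. Hormad1 is also among the other pathway genes described below. Znhit1 itself had one in both lists, which does not check the genotype labels because the position of the deletion is not given.

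Accessible starts were shared by both genotypes at 8 of the 9 genes whose start could be placed. The start was taken from RefSeq promoter windows, 300 bases from 250 before to 50 after an annotated start (GRCm38.p6, the build of mm10). Windows were found for 9 of the 10 genes, all but H2ax. Of these 9 windows, 8 were overlapped by an interval in both lists, against 28.3% of 17492 coding genes that have a window. The remaining window, that of Chek1, was overlapped in the knockout list alone, which is 1 of 9 beside 8.67% of all coding genes, a share near the background. None was found in the control list alone (3.51% of all coding genes). H2ax had an interval across its lower-coordinate end in both lists. Which of its ends is the start is not given in the tables used, so its interval is described by that end only.

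**Figure D1:**
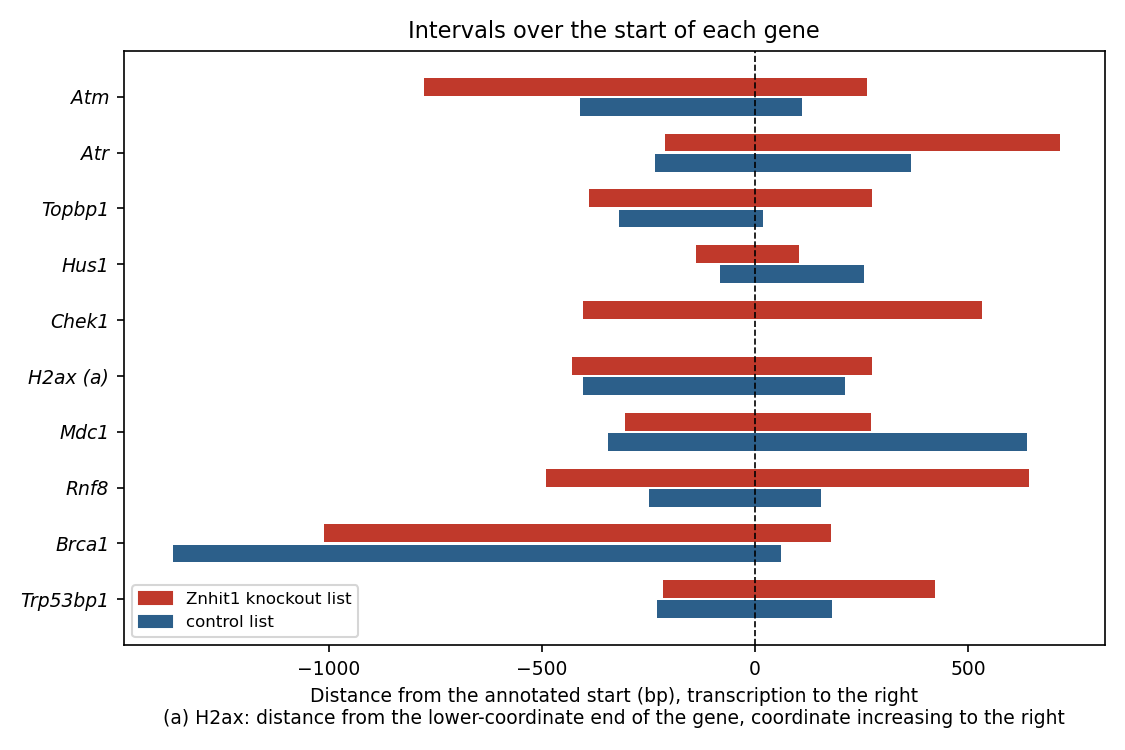
Intervals over the start of each of the 10 genes, drawn by distance from the annotated start in bp (H2ax by distance from its lower-coordinate end), with the knockout list in red and the control list in blue. Every gene has a knockout interval, Chek1 has no control interval, and at Rnf8 the knockout interval of 1133 bp encloses the control interval of 402 bp.

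Upstream sequences of 5 genes show what these accessible starts look like. Chek1 was chosen because it differed in presence between the lists, and Rnf8 and Atm for the widest knockout intervals relative to the control. Brca1 and Mdc1 were chosen from the genes with wider control intervals, of which Hus1 is not printed. Each line gives, 5′ to 3′ on the strand of the gene, the bases of the RefSeq promoter window that lie outside every annotated gene (GRCm38.p6). Capitals mark matches to the searched motifs.
Chek1 (chr9:36726659-36726908, strand -): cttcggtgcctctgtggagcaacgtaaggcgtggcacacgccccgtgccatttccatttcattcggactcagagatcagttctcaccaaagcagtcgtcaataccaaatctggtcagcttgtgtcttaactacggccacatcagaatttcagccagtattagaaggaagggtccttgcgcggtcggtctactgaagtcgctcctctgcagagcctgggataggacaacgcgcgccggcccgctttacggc
Atm (chr9:53536829-53536888, strand -): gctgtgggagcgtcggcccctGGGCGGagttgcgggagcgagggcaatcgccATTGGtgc
Brca1 (chr11:101551956-101552106, strand -): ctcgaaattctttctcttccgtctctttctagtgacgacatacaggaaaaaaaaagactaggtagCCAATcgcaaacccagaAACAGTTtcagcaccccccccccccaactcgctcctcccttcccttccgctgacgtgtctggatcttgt
Rnf8 (chr17:29614539-29614788, strand +): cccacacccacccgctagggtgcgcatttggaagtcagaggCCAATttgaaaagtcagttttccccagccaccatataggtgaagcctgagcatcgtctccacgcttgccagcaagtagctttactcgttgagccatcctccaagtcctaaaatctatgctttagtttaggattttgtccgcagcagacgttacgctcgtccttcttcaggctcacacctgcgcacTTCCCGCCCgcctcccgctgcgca
Mdc1 (chr17:35841248-35841494, strand +): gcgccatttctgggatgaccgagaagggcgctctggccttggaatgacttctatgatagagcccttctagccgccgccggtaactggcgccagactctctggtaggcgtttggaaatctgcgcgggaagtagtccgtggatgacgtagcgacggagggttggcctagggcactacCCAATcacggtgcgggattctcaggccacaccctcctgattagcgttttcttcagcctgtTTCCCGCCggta

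All 250 printed bases of Chek1 lay inside its knockout interval and 0 inside a control interval. The 60 bases printed for Atm are the whole gap between Atm and Npat, and the 151 bases for Brca1 the whole gap between Brca1 and Nbr1. Both stretches lay entirely inside an interval of each list, as did the 247 bases of Mdc1. For Rnf8 the knockout interval covered 250 bases and the control interval 248.

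The motifs searched on both strands of the full 300-base windows were CRE (TGACGTCA), NFY (CCAAT), NRF1 (GCATGCGC), SP1/KLF (GGGCGG), ETS (CCGGAAG), E2F (TTCCCGCC) and MYB (AACNGTT). An E2F match was present in 3 of the 9 windows, those of Chek1, Rnf8 and Mdc1, against 2.85% of 21263 windows of coding genes and 5.32% of the 5618 windows overlapped in both lists. The match of Rnf8 began 24 bases before the start and overlapped an SP1/KLF match on the opposite strand, that of Mdc1 began 15 bases before the start, and that of Chek1 lay 42 bases after it and is not in the printed stretch. SP1/KLF matches were in 7 of 9 windows (46.2% of all and 74.5% of those overlapped in both lists), all but those of Chek1 and Brca1. An NFY match was in 4 of 9 (38.2% of all, 43.6% of those overlapped in both lists), namely Atm, Brca1, Rnf8 and Mdc1. ETS matches were in 3 of 9, at Atm, Atr and Topbp1 (11.6% of all, 25.5% of those overlapped in both lists). MYB matches were in 2 of 9, at Hus1 and Brca1 (4.05% and 2.67%). The NRF1 motif matched in Atm alone (3.52% and 8.69%) and the CRE motif in none of the 9 (2.23% and 4.57%). A match says only that these letters occur in the window.

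The 9 windows were rich in CpG. The ratio of observed to expected CpG ran from 0.82 at Trp53bp1 to 0.96 at Chek1 and Atm, with a median of 0.57 over all coding windows and 0.85 over those overlapped in both lists. The G and C share was lowest at Brca1 (53.7%) and highest at Topbp1 (73.7%), beside medians of 56.3% and 63.7%. Chek1, with a G and C share of 55.3% and 22 CpG sites, lay within the range of the other 8 genes on both counts.

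Both apical kinase genes had an accessible start in each genotype, and the interval was wider in the knockout list. At Atm, the kinase that responds to double-strand breaks, the interval was 1039 bp in the knockout (chr9:53536409-53537447) and 520 bp in the control (chr9:53536562-53537081). Each was listed 2 times, and the control interval lay wholly inside the knockout interval, which reached 366 bp farther upstream, into Npat, and 153 bp farther into Atm. Atm and Npat, a histone gene transcription regulator, are separated by 60 bp, so this site lies at the ends of both genes. The rest of Atm, a gene of 99707 bp, held no interval in either list.

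At Atr, the kinase that acts at single-stranded DNA and on unsynapsed axes, the interval was 926 bp in the knockout (chr9:95857386-95858311) and 601 bp in the control (chr9:95857362-95857962), each listed 2 times. The upstream edges lay 24 bp apart, and the knockout interval reached 349 bp farther downstream. The start of Atr overlaps the annotated gene 1700065D16Rik. No interval lay elsewhere in Atr, but beyond its far end both lists had an interval at an end of Xrn1, an RNA exonuclease gene (650 bp in the knockout, 810 bp in the control, both starting at 95954596).

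Both genes that help to activate ATR had a control interval of 338 bp, wider than only 7.46% of the 5027 control intervals over promoter windows. At Topbp1, which encodes the scaffold that stimulates ATR, the interval spanned 664 bp in the knockout (chr9:103304937-103305600), against the 338 bp in the control (chr9:103305007-103305344). The control interval lay inside the knockout interval and ended 17 bp after the annotated start, whereas the knockout interval went on to 273 bp after it. The control list alone had a second Topbp1 interval, 333 bp wide and inside the gene (chr9:103337195-103337527), 27266 bp from the nearest knockout interval.

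At Hus1, the clamp subunit gene, the order was the opposite, with 242 bp in the knockout (chr11:9011089-9011330) and 338 bp in the control (chr11:9010937-9011274). The overlap was 186 bp, which is 76.9% of the knockout and 55.0% of the control interval. The Hus1 knockout interval was wider than only 2.67% of the 5909 knockout intervals over promoter windows, and it was the narrowest start-site interval of the set. All intervals of Topbp1 and Hus1 were listed once.

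Chek1, the effector kinase of the ATR arm, was the only gene of the 10 with no control interval inside it or within 10 kb. Its knockout interval was 934 bp wide (chr9:36726128-36727061), was listed 3 times, and ran from 403 bp before to 530 bp after the start. The nearest control interval lay 40324 bp away. Among the 1516 coding genes whose window was overlapped in the knockout list alone, the median interval width was 490 bp. The interval was at least as wide as that of Chek1 at 104 of them (6.86%), and 184 (12.1%) had one listed at least 3 times. The other coding genes within 10 kb, Acrv1 and Stt3a, had no end within 1 kb of the Chek1 interval.

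Both genes of the chromatin mark, H2ax and Mdc1, had an interval at a gene end in both lists and further intervals in 1 list alone. H2ax, the histone variant gene, is 1363 bp long, and the interval across its lower-coordinate end was 705 bp in the knockout (chr9:44334285-44334989) and 616 bp in the control (chr9:44334311-44334926). The knockout list alone held a second interval within H2ax of 586 bp (chr9:44335098-44335683), 172 bp from the control interval and listed 2 times. H2ax is 819 bp from Dpagt1, and the interval across its lower-coordinate end lay within 1 kb of an end of that gene.

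Mdc1, the gene of the adaptor that binds phosphorylated H2AX, had the smallest ratio of knockout to control width. Its start-site interval was 579 bp in the knockout (chr17:35841192-35841770) and 982 bp in the control (chr17:35841154-35842135). The knockout interval lay wholly inside the control interval, which reached 365 bp farther into the gene. Beyond the far end of Mdc1, around Nrm and Ppp1r18, the knockout list had intervals of 222 bp and 235 bp and the control list one of 303 bp, and none of these met an interval of the other list. All Mdc1 intervals were listed once.

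The 2 ubiquitin ligase genes differed from each other in the relation between the lists. At Rnf8, whose product marks chromatin next to breaks, the interval was 1133 bp in the knockout (chr17:29614299-29615431) and 402 bp in the control (chr17:29614541-29614942), a ratio of 2.82. It was listed 2 times in the knockout and once in the control. The control interval ran from 248 bp before to 153 bp after the start, and the knockout interval from 490 bp before to 642 bp after it. The Rnf8 ratio was larger than that of 98.6% of 4785 coding genes with 1 knockout and 1 control interval that overlapped each other over the promoter windows. A long non-coding RNA gene, Gm28043, is annotated from the same first base as Rnf8.

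At Brca1, whose product coats unsynapsed axes, the interval was the widest of the set in either list. It spanned 1188 bp in the knockout (chr11:101551779-101552966) and 1426 bp in the control (chr11:101551894-101553319), and was listed 4 times in each. These Brca1 widths exceeded those of 93.3% of knockout and 98.1% of control start-site intervals. The control interval reached 353 bp farther into Nbr1, an autophagy receptor gene on the far side of the gap shown above, and the knockout interval 115 bp farther into Brca1. The remaining length of Brca1, a gene of 63195 bp, held no interval in either list.

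Trp53bp1, the gene of the histone mark reader, was accessible at a start inside the annotated gene and not at either outer end. The promoter table places its start 24947 bp inside the end of the gene interval, and there the interval was 637 bp in the knockout (chr2:121270987-121271623) and 412 bp in the control (chr2:121271227-121271638). Of the control interval, 96.4% lay inside the knockout interval, which reached 240 bp farther downstream. Both lists also had an interval inside Trp53bp1 at an end of Map1a, a microtubule-associated protein gene that overlaps it (408 bp in the knockout, 789 bp in the control). The knockout list alone had an interval of 193 bp near the far end of Trp53bp1 (chr2:121204254-121204446), 36058 bp from the nearest control interval.

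At 5 genes the start-site interval was at least 1.5 times as wide in the knockout list, and at 1 in the control list. Among the 8 genes with a promoter window overlapped in both lists, the knockout interval was the wider at 5 (53.1% of the 4785 coding genes with such a pair), and at the same 5 it was at least 1.5 times as wide (16.1% of those genes). These were Rnf8 (2.82 times), Atm (2.00), Topbp1 (1.96), Trp53bp1 (1.55) and Atr (1.54). The control interval was at least 1.5 times as wide at 1, Mdc1, beside 11.2% of all pairs, while Brca1 (ratio 0.833) and Hus1 (ratio 0.716) differed less. H2ax, compared at its lower-coordinate end, had a ratio of 1.14, which leaves out the second knockout interval next to it and would be larger with the 2 merged. On the log2 scale the median width ratio, knockout over control, was 0.62 over the 9 genes of the set including H2ax, and 0.03 over all pairs (quartiles -0.28 and 0.38). With 1 list per genotype these ratios have no replicate error, and no test was run.

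**Figure D2:**
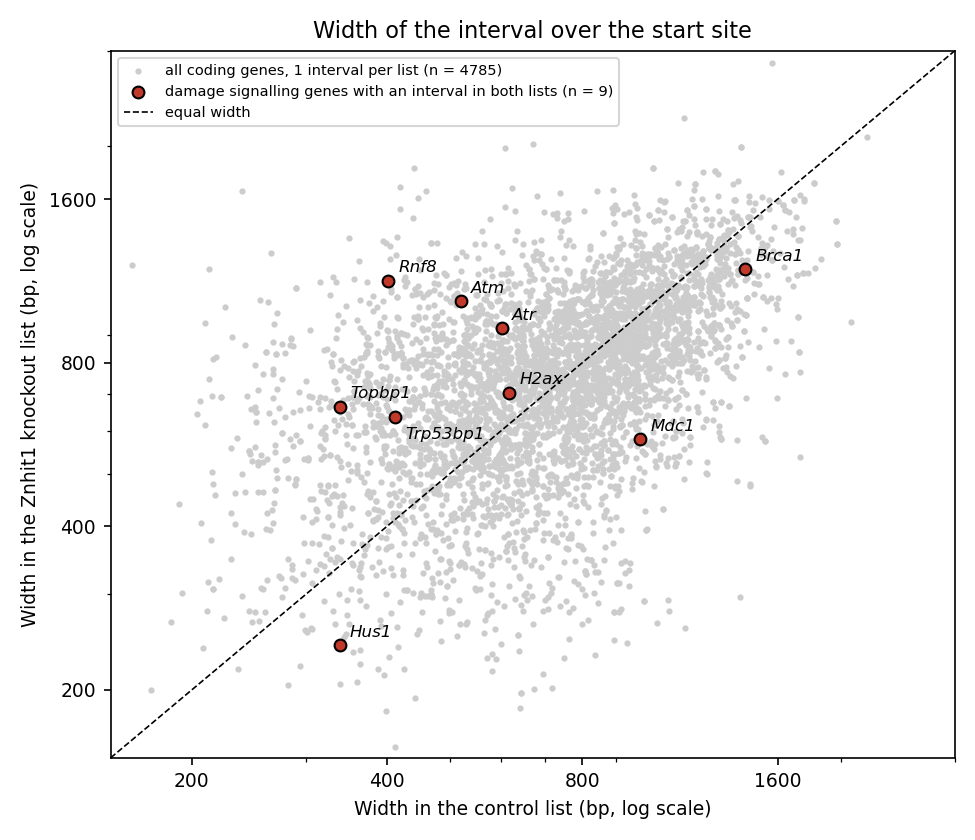
Width of the start-site interval in the control list (horizontal axis, bp, log scale) against that in the knockout list (vertical axis, bp, log scale), with 4785 coding genes in grey, 9 genes of the set in red (H2ax at its lower-coordinate end) and equal widths on the dashed line. Rnf8, Atm, Topbp1, Trp53bp1 and Atr lie above the line by at least 1.5 times, and Mdc1, Hus1 and Brca1 lie below it.

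The edges of the 2 lists lay farther apart downstream than upstream at 6 of the 8 genes, with Atm and Brca1 the exceptions. How many of all pairs show the same was not counted, so this is not shown to be particular to these genes. The knockout interval reached farther downstream than the control interval at 6 of the 8 genes (53.3% of all pairs), by between 115 bp at Brca1 and 489 bp at Rnf8, and less far at Hus1 (152 bp) and Mdc1 (365 bp). Upstream, the knockout interval reached farther at 4 genes and the control interval at 4, a split that was not counted over all pairs. The median signed difference, knockout minus control, was 196.5 bp downstream and 20.5 bp upstream over the 8 genes (at Atm and Brca1 the upstream differences were large and of opposite sign), against 12 bp and 10 bp over all pairs. The control interval lay wholly inside the knockout interval at 3 of the 8, Atm, Topbp1 and Rnf8 (28.6% of all pairs). Without H2ax, the median width of knockout start-site intervals was 926 bp over 9 genes and 689 bp over all coding genes, and that of control intervals was 466 bp over 8 genes and 685 bp over all. The 9 include Chek1 (934 bp), which has no control interval, so 926 and 466 bp are medians of unlike sets of genes.

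Away from the starts (for H2ax its lower-coordinate end) the 10 genes held 7 knockout and 4 control intervals. No such count was made over all coding genes. With the starts included, there were 17 knockout and 13 control intervals within 10 kb, a mean of 1.7 and 1.3 per gene beside 1.05 and 0.826 over all coding genes. Both lists had an interval at 9 of the 10 (46.1% of coding genes), and the knockout alone at 1, Chek1 (13.9%). Of the 17 knockout intervals, 11 met a control interval (39.2% of knockout intervals near coding genes), and of the 13 control intervals 11 met a knockout interval (51.6%). The 8 intervals found in 1 list alone were 6 in the knockout, of which Chek1's was the only one over a start, and 2 in the control. Of the 7 knockout intervals away from the starts, 6 lay within 1 kb of an end of another coding gene, and the one of 193 bp near the far end of Trp53bp1 did not. At 3 of the 9 genes with a window, Atm, Atr and Brca1, the knockout start-site interval came within 1 kb of a further coding gene's end, beside 27.4% of coding genes with such an interval. In position, 5 of the 10 genes lie on chromosome 9, which carries 5.49% of coding genes, 2 each on chromosomes 11 and 17, and 1 on chromosome 2. Chromosome 9 held 5.53% of knockout and 5.74% of control intervals.

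Counted at annotated gene ends, within 1 kb of either end, 8 of the 10 genes had an interval in both lists (28.6% of all 21887 coding genes), Chek1 in the knockout alone (9.81%), and Trp53bp1 in neither, since its accessible start is internal. When both lists were limited to intervals listed at least 2 times, Atm, Atr and Brca1 were in both lists, Chek1, Rnf8 and H2ax in the knockout alone, and the other 4 in neither. H2ax stayed through its second knockout interval, since the interval across its lower-coordinate end was listed once in each list. The shares over all coding genes were not counted under this limit, so these classes have no background.

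**Figure D3:**
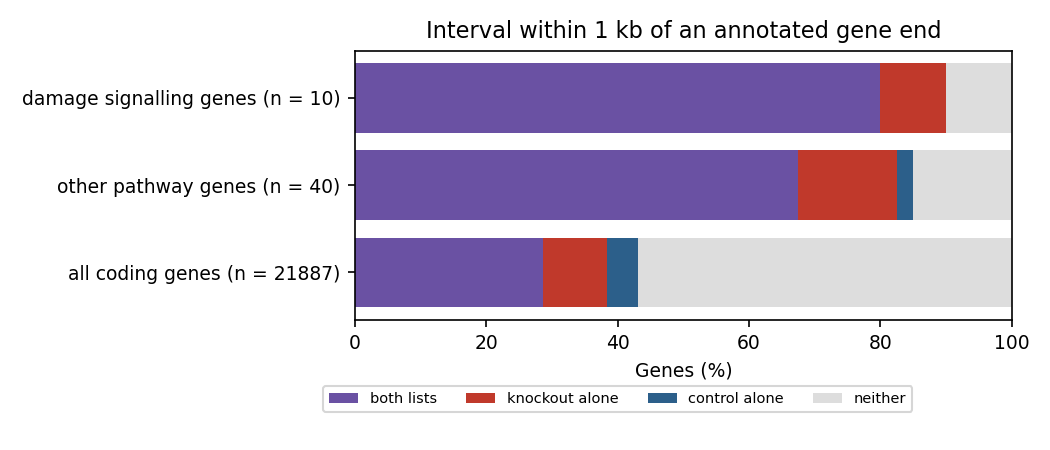
Share of genes (percent, horizontal axis) with an interval within 1 kb of an annotated gene end in both lists, in 1 list alone or in neither, for the 10 damage signalling genes, 40 other genes of the pathway and all 21887 coding genes. Both gene sets were in both lists at 8 of 10 and 27 of 40, beside 28.6% of all coding genes.

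Other genes of the pathway were likewise accessible at a gene end in both lists for the most part. Of 40 such genes, 27 had an interval in both lists (67.5%, beside 28.6% of all coding genes). Another 6 were found in the knockout only (15.0%, beside 9.81%), 1 was found in the control only (2.5%, beside 4.66%) and 6 had none (15.0%, beside 57.0%). The groups described next are small parts of these 40 and are given by count only. In the ATR arm, 5 of 8 were in both lists, including Atrip, the ATR partner, Rad17, the clamp loader (938 bp in the knockout, 1298 bp in the control), and Rad9b, a testis-enriched clamp subunit (1002 and 1158 bp). Hus1b, the paralogue of Hus1 (372 bp), and Clspn, which links ATR to CHEK1 (365 bp), were in the knockout alone. Etaa1, the second ATR activator (409 bp), was in the control alone. All 5 genes of the ATM arm were in both lists, among them the MRN complex genes Mre11a, Rad50 and Nbn. The Trp53 intervals of that arm lay near an end of Wrap53 and did not reach the promoter window of Trp53.

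Among partners of BRCA1, Bard1, Palb2 and Brip1 were in both lists and Rbbp8 in neither. Both TRP53BP1 partners, Paxip1 (1052 and 1265 bp) and Rif1, were in both. In the ubiquitin group, Rnf168, which acts after RNF8, and Ube2n, its conjugating enzyme partner (1136 and 1359 bp), were in both. Uimc1, the RAP80 gene of the BRCA1-A complex, had an interval of 983 bp in the knockout alone, and Abraxas1 and Brcc3 had none. Of 4 Fanconi anaemia genes, Fanca was in both lists, Fancd2 (210 bp) in the knockout alone and Fancb and Fanci in neither.

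Hormad1, Hormad2 and Trip13 (936 and 976 bp), grouped here as axis genes, were in both lists. Of 9 genes tied to silencing, 6 were in both, including Setdb1 and its partners Trim28 and Atf7ip2. Ubr2 (290 bp) and Ehmt2 (324 bp) were in the knockout alone and Scml2 in neither. The Ehmt2 interval did not reach the promoter window of Ehmt2. All 3 X-linked genes of the 40, Brcc3, Fancb and Scml2, had no interval in either list, which is the state of 89.6% of 966 X-linked coding genes. Of the 37 autosomal genes 3 had none, beside 55.4% of coding genes off the X.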

How the data were processed

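Peak lists of ATAC-seq in pachytene spermatocytes were analysed, 1 recorded for the first Znhit1_KO library and 1 for the first CTRL library. No list recorded for the other 2 libraries was used here. Per the submitters' processing notes, the build was mm10 and the tools were MACS2 2.2.4, Picard 2.20.7, Bowtie2 2.3.4.3 and cutadapt 2.5. The role of each tool, the threshold, any Tn5 shift and any pooling of replicates are not stated there or in the labels. The lists deposited by the authors hold 3 columns, chromosome, start and end, in bases, and other values such as scores are not in them. Repeated lines were counted once (29656 lines in the knockout, 24167 in the control), with the number of times listed kept. What a repeated line stands for is not stated in the sources used. The number of times listed therefore cannot be read as confidence or as replicate support. Positions are 1-based. Intervals were shared when they overlapped by at least 1 bp. Genes came from RefSeq GRCm38.p6 and starts from its promoter table, which gives the strand.

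Python 3.11.15, numpy 2.4.6, pandas 2.3.3, scipy 1.17.1 and matplotlib 3.10.9 were used. On simulated intervals 7688 of 7688 shared and 14940 of 14940 unshared ones were recovered, and bedtools 2.31.1 gave the same 7688. The genes, the pathway list and the markers were chosen with earlier results of these data known. All 10 genes are named. Of the pathway genes, those in 1 list alone, those in neither and the 6 with the widest intervals in both lists were named by rule, and the others are named as examples of their class. Some of these genes and intervals are counted but not reported here. Alternatives were other overlap rules, flanks, windows and subsets of intervals. All 4 samples have a group.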

Additional observations from a re-analysis of the deposited data

How the results depend on the processing

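Of 65 counts recomputed under the alternatives, 52 stayed within 1.5 times of the reported value and 13 did not. Most of the 13 came from keeping only intervals listed at least 2 times. The 10 genes then held 8 knockout and 5 control intervals, of which 4 and 4 were shared. A gene-end interval was then in both lists at 3 of the 10 genes and in the knockout alone at 3, and promoter windows at 3 and 2. All coding genes were not counted under this limit. Of the other pathway genes 16 were then in both lists and 4 in the control alone. After dropping intervals under 300 bp, and after cutting the knockout list to its widest intervals at the length of the control list, 1 of the 10 genes (Hus1) was in the control alone, since its knockout interval is 242 bp wide. With a window of 500 bp, 2 other pathway genes were in the control alone. Shares over all coding genes were not counted under any of the alternatives, so these counts have no background. Chek1 was in the knockout list alone under every subset and window tried, but none of these could have changed its class. The subsets add no interval, and the Chek1 interval, 934 bp wide and listed 3 times, passes each of them. The nearest control interval, 40324 bp away, lies beyond every window. With an overlap of 50% of both intervals the Rnf8 pair no longer counted as shared, which left 10 shared intervals per list.

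No paired analysis was possible because there is 1 peak list per genotype. For the same reason no replicate was left out. The labels' protocols give more than 30000000 reads per sample, but how many reads were kept for each list is unknown, and a missing interval does not show a closed site.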
